A study of Mus musculus with 12 samples.

Results

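The comparison described here sets teratomas labelled K238R against teratomas of the empty-vector control (ET) over every gene measured. It holds 6 of the 12 libraries of the study, namely all 3 whose titles and treatment labels read K238R and all 3 labelled ET. Both groups came from R1 cells, a mouse embryonic stem (ES) cell line, transduced with the lentiviral pEZ-Lv235 vector with a CAG promoter and selected with puromycin. The ET vector carried no insert, and the K238R vector carried Dnmt3L with its lysine at the K238 acetylation site changed to arginine. The other 6 libraries, made with wild-type (WT) Dnmt3L or with the K412R mutant, entered the model that estimates the spread between teratomas and are otherwise named only where a result turns on them. For every group 5000000 cells kept in FBS-LIF medium were injected under the skin of male NOD-Prkdc EM1 mice aged 8 weeks, which lack functional lymphocytes, and the tumours were collected at day 21 after injection. Each library was made from the RNA of a whole teratoma, so vessels, blood cells, macrophages and stroma of the host were read together with the progeny of the ES cells. The labels do not say which teratomas shared a mouse, and p-values here measure the spread between the sequenced teratomas. No repeat of the selected line is described for either construct, so label and cell line cannot be told apart. The p-values and intervals do not cover differences between lines.

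Dnmt3L is a catalytically inactive relative of the de novo DNA methyltransferases Dnmt3a and Dnmt3b that binds them and promotes their activity, and it is made in ES cells and germ cells and shut off in most differentiated tissue. A teratoma is a benign growth in which ES cells differentiate without order into neural tissue, cartilage, muscle, epithelia and other tissues of all germ layers. The share of each tissue differs from tumour to tumour, so in bulk RNA fewer cells of a type and less RNA per cell cannot be told apart.

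Totals lay between 16957677 and 18546100 counts in the 6 libraries, which listed 38986 genes, and 18405 genes passed the filter on low counts and were tested. Levels are given in CPM, a count divided by the library total after TMM scaling and expressed per 1000000, and they compare a gene between libraries and not one gene with another. The nuclear RNA Gm26917 took 7.47% to 11.8% of the counts. Counting noise alone would give a chi-square near its degrees of freedom, and between pairs of replicates it was 11.9 to 52.6 times as large. Markers of many tissues were present in all 6 libraries, whereas only 2 of 21 lymphocyte and granulocyte genes were high enough to be tested, with a summed level of 1.27 to 2.86 CPM.

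Dnmt3l was read first, as the gene that the K238R construct carries. Its raw counts were 39, 11 and 137 in ET replicates 1, 2 and 3 and 35, 20 and 10 in the libraries labelled K238R. The 3 WT libraries held 2941, 3643 and 3581 counts and the K412R libraries 699, 677 and 463. In CPM the ET libraries stood at 2.19, 0.642 and 7.72 and the libraries labelled K238R at 1.85, 1.12 and 0.526. The groups overlapped, ET replicate 3 was the highest of the 6, and the log2 fold change of -1.59 (standard error 0.71) did not pass (edgeR adjusted p = 0.806). Without ET replicate 3 the log2 fold change was -0.29. The transcript of the construct was thus not seen above the control, and the libraries are named by their label throughout.

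The partners of Dnmt3l in DNA methylation were read next, with 9 of 10 listed enzymes tested. At an unadjusted p under 0.05, 1 of the 9 was lower, Dnmt3l itself, beside 3.09% of all genes. Dnmt1, which copies methylation at replication, stood at 184, 174 and 252 CPM in ET and 229.9, 171 and 185 CPM in the libraries labelled K238R. Its log2 fold change of -0.06 had a 95% interval of -0.38 to 0.26. For Dnmt3a the values were 201, 221 and 208 CPM and 192, 212 and 215 CPM, and the interval of the log2 fold change was -0.24 to 0.18. Neither enzyme separated the groups. Dnmt3b, the de novo enzyme of early embryonic cells, was at 24.6, 28.1 and 68.6 CPM in ET and 25.1, 14.6 and 14.04 CPM in the libraries labelled K238R. ET replicate 3 again lay far above the others, ET replicate 1 lay below the highest K238R library, and the log2 fold change was -1.17 (standard error 0.64, edgeR adjusted p = 0.806).

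Across the transcriptome no gene passed an adjusted p under 0.05 with edgeR's quasi-likelihood test (0 of 18405, 0%), and the lowest adjusted p was 0.192. At an unadjusted p under 0.05 there were 1032 genes (5.61%), 463 higher (2.52%) and 569 lower (3.09%) in the libraries labelled K238R. By the added criterion of a 2-fold difference, 57 genes were higher (0.31%) and 118 lower (0.641%). All 3 libraries labelled K238R lay above all 3 ET libraries for 822 genes (4.47%) and below them for 899 genes (4.88%). With 3 libraries in each group, labels set at random would separate a similar share of genes in each direction. A lack of overlap alone therefore does not set a gene apart. The 5.61% at an unadjusted p was likewise near the 0.05 threshold itself. DESeq2, fitted to the same genes, called 14 (0.0761%), 3 higher and 11 lower. The median log2 fold change over all genes tested was -0.02. The 95% interval lay within 2-fold in both directions for 13574 genes (73.8%), so for most genes a larger difference was outside the interval.

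**Figure D1:**
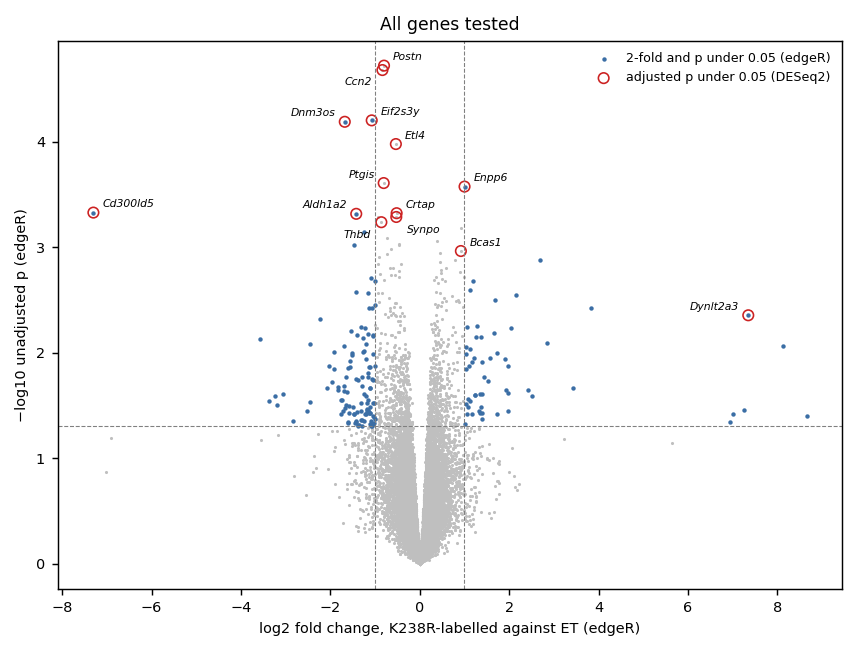
Each of the 18405 genes tested is drawn by its log2 fold change (horizontal axis, libraries labelled K238R against ET) and by the −log10 of its unadjusted p (vertical axis), both from edgeR. Blue points met the 2-fold and unadjusted p criterion (57 higher, 118 lower) and red circles mark the 14 genes called by DESeq2. Points beyond about 6 on either side have no count in 1 of the groups, and their position depends on the prior count of the fit.

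The libraries did not sort by label. Over the 500 genes of largest variance in the 6 libraries, the difference between the groups made up 14.1% of the variance. Distances (the square root of the mean squared log2 CPM difference per gene) were 1.81 to 2.50 between libraries of different groups (mean 2.17), 1.93 to 2.62 within ET (mean 2.22) and 1.94 to 2.64 within the libraries labelled K238R (mean 2.38). The nearest library was of the other group in 5 of 6 cases, and ET replicate 3, nearest to ET replicate 1, was the exception. The leading component carried 35.2% of the variance. On it ET stood at 6.27, 18.4 and -20.2 and the libraries labelled K238R at 5.24, 21.1 and -30.8, and the groups overlapped. Genes of skeletal muscle, such as Ckm and Actc1, were among those with the most positive loadings, with Ckm at 37.8, 25.7 and 31.2 CPM in ET and 87.9, 106 and 0.105 CPM in the libraries labelled K238R.

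The smallest p-values belonged to Postn and Ccn2, both lower in the libraries labelled K238R. Postn encodes periostin, a matrix protein secreted by fibroblasts and by cells of the periosteum. Its level was 196, 218 and 176 CPM in ET and 118, 112 and 109 CPM in the libraries labelled K238R. All 3 of the latter lay below every ET library and within 10 CPM of each other, and the log2 fold change was -0.80 (standard error 0.12, 95% interval -1.05 to -0.55). DESeq2 called the gene (adjusted p = 4.19e-06) and edgeR did not (adjusted p = 0.192). Ccn2, a secreted matricellular protein known as connective tissue growth factor, was at 58.5, 59.5 and 63.1 CPM in ET and 39.3, 30.95 and 31.2 CPM in the libraries labelled K238R. It was lower in 3 of 3 libraries, with a log2 fold change of -0.84 (standard error 0.12, DESeq2 adjusted p = 4.19e-06, edgeR adjusted p = 0.192). The WT and K412R means of Ccn2 were 35.7 and 49.4 CPM, also below the ET mean of 60.4 CPM. For Postn they were 265 and 179 CPM, beside an ET mean of 197 CPM.

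The start of the Postn gene is shown because this gene had the smallest p of the comparison. The window runs from 250 bases before to 50 after a RefSeq start site, on the plus strand of chr3:54360857-54361156 (GRCm38.p6), which is not the build of the count files (GRCm39). Capitals mark a TATAAA element 26 bases before the start site, the one match when both strands were searched for TATAAA. The same letters occur in 13.62% of 32851 mouse windows of this length, and a match is a description only. The other window that RefSeq gives for Postn, chr3:54359017-54359316, held no match and is not printed.
Postn: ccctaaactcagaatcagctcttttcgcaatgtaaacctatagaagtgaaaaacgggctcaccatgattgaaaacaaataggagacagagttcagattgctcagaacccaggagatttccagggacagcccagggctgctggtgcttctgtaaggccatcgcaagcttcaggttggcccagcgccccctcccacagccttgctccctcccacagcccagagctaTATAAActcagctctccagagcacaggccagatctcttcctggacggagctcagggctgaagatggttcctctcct

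Dnm3os is a long noncoding RNA transcribed from the strand opposite to Dnm3, and it is the host transcript of miR-199a-2 and miR-214. Its level was 7.52, 11.7 and 5.75 CPM in ET and 2.81, 2.68 and 2.31 CPM in the libraries labelled K238R. Each library of the latter group lay below the lowest ET library by more than 2-fold, ET replicate 2 was the highest of the 6, and the log2 fold change was -1.68 (standard error 0.28, DESeq2 adjusted p = 1.53e-04, edgeR adjusted p = 0.297). The counting was not stated to use strand, so reads of Dnm3 and Dnm3os cannot be told apart where they overlap. The mature miRNAs that this transcript carries are given below as RefSeq lists them for GRCm38.p6, since the host was among the genes with the smallest p. Capitals mark the seed, bases 2 to 8. The pair from the miR-199a-2 hairpin lies at chr1:162217844-162217904 and the pair from the miR-214 hairpin at chr1:162223397-162223459, all on the plus strand. No small RNA was measured, so the level of these miRNAs is not known from these libraries.
mmu-miR-199a-5p: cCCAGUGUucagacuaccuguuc
mmu-miR-199a-3p: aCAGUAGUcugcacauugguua
mmu-miR-214-5p: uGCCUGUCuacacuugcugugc
mmu-miR-214-3p: aCAGCAGGcacagacaggcagu

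Aldh1a2, which makes retinoic acid in embryonic mesoderm, was at 14.3, 12.7 and 7.27 CPM in ET and 3.12, 5.64 and 4.05 CPM in the libraries labelled K238R, without overlap (log2 fold change -1.42, standard error 0.30, DESeq2 adjusted p = 0.0123). Ptgis, the synthase of prostacyclin in vessels and stroma, was at 7.41, 8.06 and 7.78 CPM and 4.02, 4.53 and 4.73 CPM, with a log2 fold change of -0.81 (standard error 0.16). Thbd, the thrombin receptor thrombomodulin of endothelium and other cells, stood at 13.4, 12.3 and 11.9 CPM and 7.94, 5.98 and 6.78 CPM. Both genes were lower in every library labelled K238R than in any ET library. Crtap, a subunit of the complex that hydroxylates prolines of fibrillar collagen, differed by -0.52 on the log2 scale (standard error 0.11), the actin-binding protein gene Synpo by -0.52 (0.11) and Etl4 by -0.53 (0.09). The libraries of the groups did not overlap for any of these genes. DESeq2 adjusted p-values were 0.0222 for Ptgis, 0.0456 for Thbd and Crtap, 0.0486 for Synpo and 0.00119 for Etl4. The edgeR adjusted p was 0.698 for Ptgis, 0.386 for Etl4 and 0.775 for Aldh1a2, Thbd, Crtap and Synpo. Thbd, Crtap and Synpo, and Bcas1 described below, were not called when DESeq2 was given all genes with a count.

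A list of 20 genes of smooth muscle and fibroblasts, all tested, had a median log2 fold change of -0.60, against -0.02 over all genes. At an unadjusted p under 0.05, 8 of the 20 were lower and 0 higher, beside 3.09% and 2.52% of all genes. These were Postn, Lum, Col1a1, Col1a2, Col3a1, Dcn, Mfap5 and Dpt, all of which encode extracellular matrix proteins, while smooth muscle genes of the list were not among them. Lum, a collagen-binding proteoglycan, was at 50.3, 47.8 and 36.8 CPM in ET and 23.5, 28.3 and 18.6 CPM in the libraries labelled K238R, without overlap (log2 fold change -0.94, standard error 0.23). Mfap5, a component of microfibrils, was at 10.4, 8.23 and 9.07 CPM and 7.67, 5.08 and 3.42 CPM and did not overlap either.

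The fibrillar collagens behaved less evenly. Col1a1, the alpha 1 chain of type I collagen, stood at 969.6, 2024 and 461 CPM in ET and 339.6, 803 and 386 CPM in the libraries labelled K238R. ET replicate 2 was the highest of the 6 and ET replicate 3 lay below K238R replicate 2, so the groups overlapped. The log2 fold change was -1.18 (standard error 0.48), and without ET replicate 2 it was -0.48. Col3a1, the chain of type III collagen, was at 682, 982 and 445 CPM and 326, 475 and 336 CPM, with a log2 fold change of -0.89 (standard error 0.29). Pdgfra, a growth factor receptor of mesenchymal and oligodendrocyte progenitors, did not share this pattern, at 83.5, 105 and 66.2 CPM and 93.05, 98.7 and 73.4 CPM (log2 fold change 0.06, 95% interval -0.30 to 0.42).

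The summed level of these 20 genes was 2027 to 4920 CPM in ET and 1559 to 2405 CPM in the libraries labelled K238R. The number of genes lower at an unadjusted p under 0.05 ran from 4 without K238R replicate 3 to 12 without ET replicate 3. Over all genes the shares lower in these fits were 1.59% and 3.21%. The median ran from -0.76 to -0.40 with 1 library left out. None of the 20 passed the edgeR adjusted threshold.

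Of 24 genes of cartilage and bone tested, 5 were lower and 1 higher at an unadjusted p under 0.05, beside 3.09% and 2.52% of all genes, and the median was -0.25. Spp1, the bone and macrophage glycoprotein osteopontin, stood at 33.7, 97.2 and 38.4 CPM in ET and 29.96, 21.4 and 16.7 CPM in the libraries labelled K238R. Runx2, the transcription factor required for osteoblasts, was at 8.53, 10.9 and 8.85 CPM and 6.67, 7.04 and 6.78 CPM. Both were lower without overlap, with log2 fold changes of -1.31 (standard error 0.58) and -0.46 (standard error 0.19). Acan, the aggregating proteoglycan of cartilage, was at 5.67, 9.98 and 4.23 CPM and 3.07, 4.41 and 2.16 CPM, where K238R replicate 2 reached the lowest ET library. Mmp13, a collagenase of hypertrophic cartilage and bone, was at 5.61, 23.1 and 2.82 CPM and 4.605, 3.02 and 2.05 CPM, with ET replicate 2 far above the other 5 libraries. Col2a1, the type II collagen of cartilage, stood at 159.9, 82.2 and 151 CPM and 135, 77.3 and 103 CPM (log2 fold change -0.32, 95% interval -1.05 to 0.41), so its difference was within the spread of the teratomas. The other gene of the 5 was Bglap, at or under 1.93 CPM in every library, and the higher one was Sox6, a cartilage and glial transcription factor (log2 fold change 0.26, standard error 0.12). Without K238R replicate 3 the number of lower genes was 1, beside 1.59% of all genes in that fit.

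The list with the most higher genes was that of myelinating glia. Of 20 genes of oligodendrocytes and Schwann cells tested, 8 were higher and 0 lower at an unadjusted p under 0.05, beside 2.52% and 3.09% of all genes, and 9 were higher and 2 lower without overlap, beside 4.47% and 4.88%. The median log2 fold change was 0.33. Oligodendrocytes ensheath axons of the central nervous system with myelin, and Schwann cells do so in peripheral nerve. Mbp, a major myelin protein, was at 131, 116 and 101 CPM in ET and 183, 245 and 186 CPM in the libraries labelled K238R. Every library of the latter group lay above the highest ET library, and K238R replicate 2 was the highest of the 6 (log2 fold change 0.82, standard error 0.26, edgeR adjusted p = 0.806).

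Olig2 is a transcription factor that specifies the oligodendrocyte lineage and motor neurons. It was at 32.6, 30.1 and 23.3 CPM in ET and 43.4, 46.1 and 43.6 CPM in the libraries labelled K238R, the latter within 3 CPM of each other (log2 fold change 0.63, standard error 0.20). Olig1, its neighbour on the chromosome, was at 31.9, 31.4 and 20.2 CPM and 38.3, 46.5 and 40.2 CPM, and Sox10, which myelinating glia of both kinds need, at 39.6, 27.3 and 27.6 CPM and 40.3, 56.3 and 46.7 CPM. All 3 transcription factors were higher in 3 of 3 libraries without overlap. Cnp, Mag and Ugt8a, which act in the making of the myelin sheath, were also among the 8, with log2 fold changes of 0.61, 0.66 and 0.49. The 2 lower genes were Egr2, the regulator of Schwann cell myelination that is also an immediate early gene (log2 fold change -0.68, standard error 0.31), and Erbb3, a receptor of neural crest glia (-0.27, 0.15).

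Enpp6 and Bcas1, called by DESeq2, are known as genes of newly formed oligodendrocytes. Enpp6, which encodes a choline phosphodiesterase, was at 8.48, 7.299 and 6.71 CPM in ET and 15.5, 15.1 and 14.4 CPM in the libraries labelled K238R (log2 fold change 1.002, standard error 0.20, DESeq2 adjusted p = 0.00959, edgeR adjusted p = 0.698). Bcas1 was at 79.8, 64.99 and 53.4 CPM and 111, 140.1 and 124 CPM (log2 fold change 0.92, standard error 0.21, DESeq2 adjusted p = 0.0497, edgeR adjusted p = 0.775). Neither gene was part of the list, and for each the groups lay apart. The WT and K412R means were 14.5 and 19.5 CPM for Enpp6 and 102 and 143 CPM for Bcas1, also above ET. Relative to the ET mean, list scores were 0.28 to 0.81 in WT and 0.18 to 1.02 in K412R. They were 0.04 to 0.48 in the libraries labelled K238R and -0.15 to 0.13 in ET. On this score the libraries labelled K238R overlapped ET, as K238R replicate 3 lay below ET replicate 1. Higher levels of these genes were therefore not particular to the libraries labelled K238R. The count of 8 fell to 4 without ET replicate 3 and to 4 without K238R replicate 2, where 1.54% and 1.52% of all genes were higher. In the same fits 1 and 2 genes of the list were lower, beside 3.21% and 2.28% of all genes. The plot of single genes shows Mbp, Olig2, Bcas1 and Enpp6 above the control, Postn, Ccn2 and Lum below it, and Col1a1 with overlap.

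**Figure D2:**
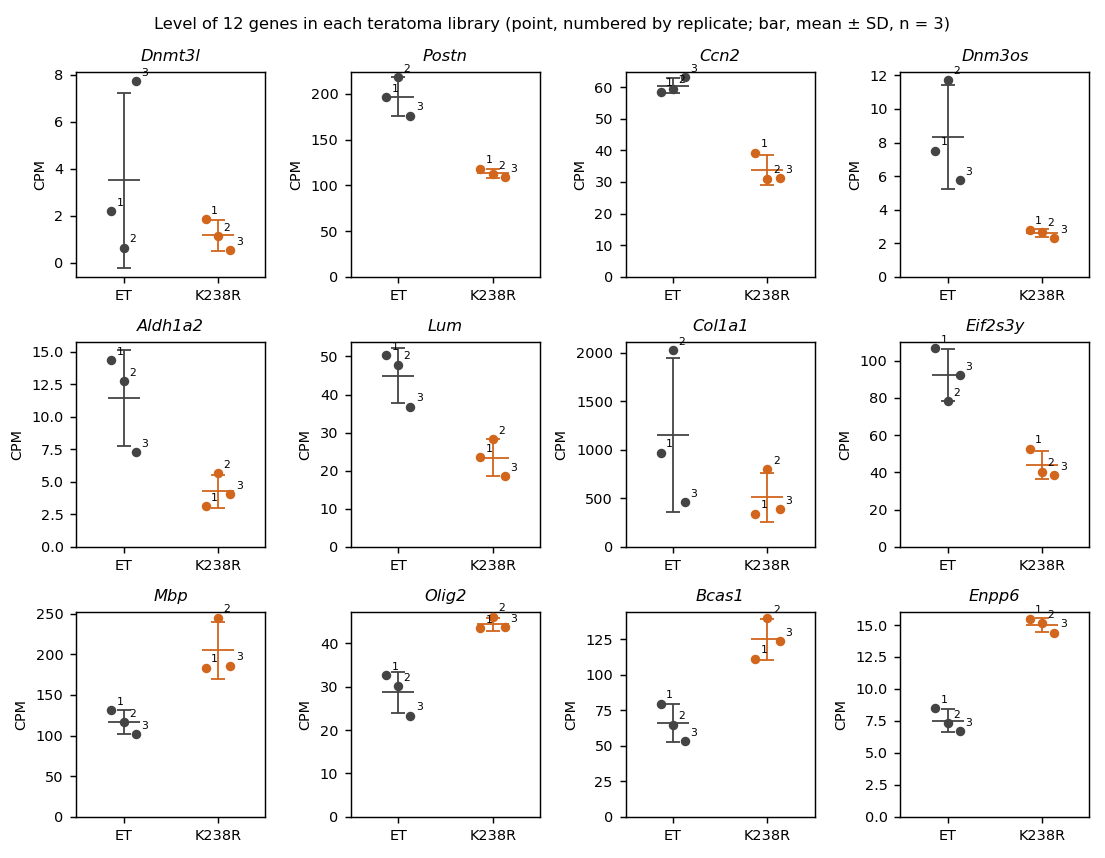
CPM (vertical axis, linear from 0) of 12 genes in the 3 ET (grey) and the 3 libraries labelled K238R (orange), with the replicate number beside each point and the mean ± SD as a bar. Postn, Ccn2, Dnm3os, Aldh1a2, Lum and Eif2s3y lie lower and Mbp, Olig2, Bcas1 and Enpp6 higher in every library labelled K238R, whereas Dnmt3l and Col1a1 overlap.

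Neuronal genes leaned the same way with smaller differences. Of 28 tested, 27 had a log2 fold change above 0, with a median of 0.29, but only Elavl3, Gria2, Tubb3 and Map2 had an unadjusted p under 0.05 and were higher, beside 2.52% of all genes. Map2, a dendritic microtubule protein, was at 658, 883 and 591 CPM in ET and 841, 992 and 987 CPM in the libraries labelled K238R. ET replicate 2 lay above K238R replicate 1, so the groups overlapped (log2 fold change 0.40, standard error 0.17). Elavl3, an RNA-binding protein of neurons, was at 232, 250.1 and 219 CPM and 254, 293 and 295 CPM and did not overlap (log2 fold change 0.27, standard error 0.12). The number at an unadjusted p under 0.05 was 20 of 28 without ET replicate 2, where 10.7% of all genes were higher. It was 0 without ET replicate 1, ET replicate 3 or K238R replicate 3, where 1.87%, 1.54% and 1.87% were. The summed level was 5364 to 7091 CPM in ET and 6331 to 7959 CPM in the libraries labelled K238R.

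Other neural lists did not separate the groups as a whole. Among neural progenitor genes (27 tested, median 0.06), Sox2 was at 157, 122 and 178 CPM in ET and 167, 134 and 177 CPM in the libraries labelled K238R, and Emx2, a factor of the dorsal forebrain, was higher without overlap at 1.68, 2.04 and 1.01 CPM and 3.12, 2.402 and 2.42 CPM. Among astrocyte and radial glia genes (18 tested, median 0.06), Aldh1l1, an astrocyte enzyme, differed by 0.61 on the log2 scale (standard error 0.22), while the gap junction gene Gja1, which many cell types share, differed by -0.35 (0.15). Gata2 and Gata3, the pair of zinc finger factors of sympathetic neurons and of trophoblast, were higher without overlap, Gata3 at 33.96, 35.5 and 26.4 CPM and 36.8, 46.4 and 54.3 CPM (log2 fold change 0.52, standard error 0.16). Over the 20 genes of peripheral and sympathetic neurons the median was -0.15.

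The retina and pigment cell list was the one of 36 whose mean level was higher in every library labelled K238R than in any ET library. For single genes the share above in this way was 4.47%, so this alone does not set the list apart. Relative to the mean of ET on the log2 scale, it stood at -0.22, 0.24 and -0.03 in ET and at 0.51, 0.31 and 0.28 in the libraries labelled K238R. Its summed level overlapped, at 41.3, 59.0 and 60.8 CPM in ET and 74.4, 58.4 and 64.3 CPM in the libraries labelled K238R. The list rested on 10 genes tested of 20, of which 1 was higher at an unadjusted p under 0.05, beside 2.52% of all genes. That gene was Lhx9, at 0.954, 1.99 and 0.564 CPM and 2.43, 4.58 and 1.79 CPM. Rax, the eye field factor, reached at most 1.40 CPM in the 6 libraries. In the choroid plexus, the tissue that makes cerebrospinal fluid, Ttr encodes the abundant carrier transthyretin. Its level was 1.35, 0.759 and 1.35 CPM in ET and 3.81, 20.3 and 0.999 CPM in the libraries labelled K238R. The log2 fold change of 2.85 (standard error 0.90) was set by K238R replicate 2, as K238R replicate 3 lay within ET, and it was 1.05 without that library. Folr1, a folate receptor of the same epithelium, was higher without overlap at 7.86, 8.58 and 8.34 CPM and 10.6, 12.3 and 11.7 CPM (log2 fold change 0.49, standard error 0.23). Of 15 choroid plexus and ependyma genes tested, 9 lay above 0 and 6 below, and the list scores of the groups overlapped. The median was 0.17, and -0.05 without ET replicate 1. At an unadjusted p under 0.05, 1 was higher and 0 lower, beside 2.52% and 3.09% of all genes.

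**Figure D3:**
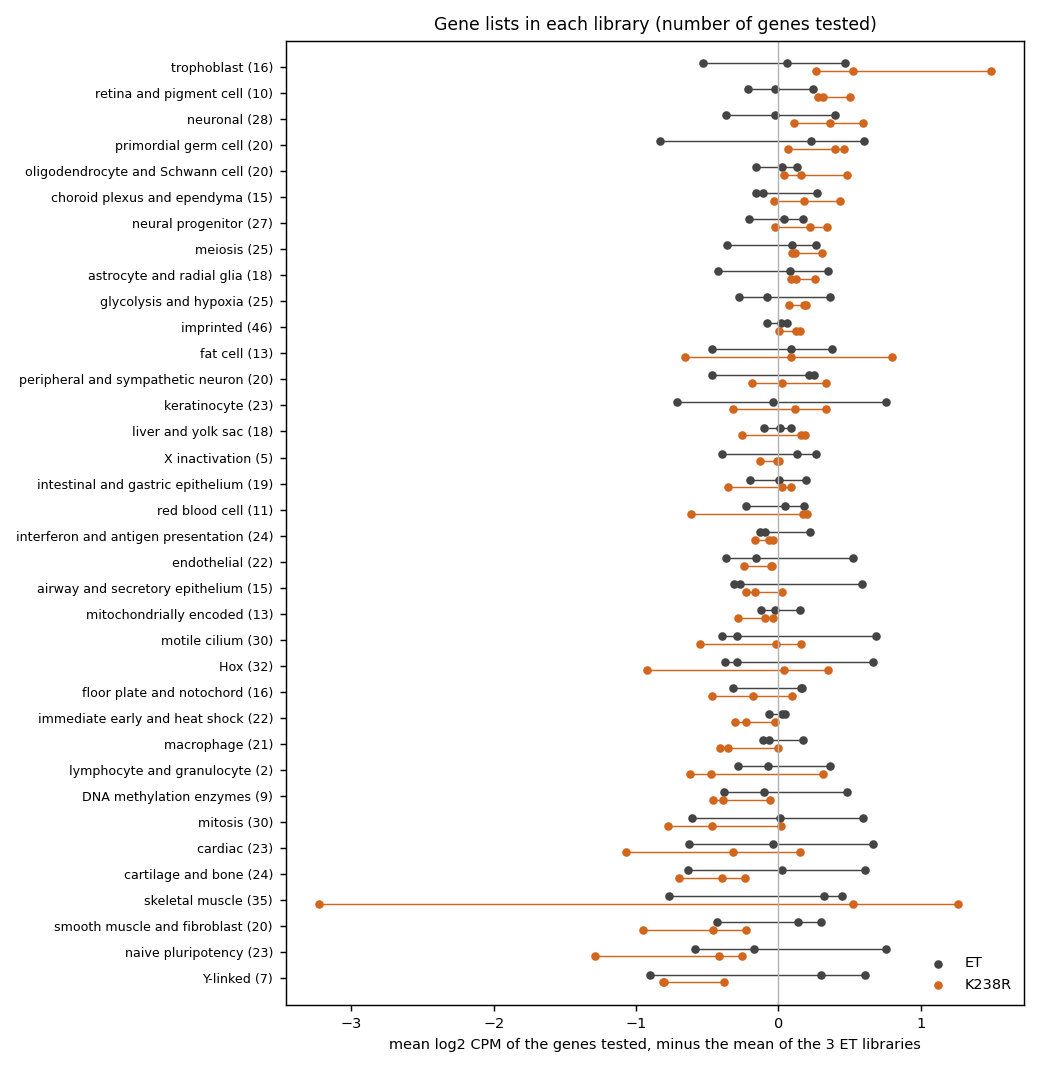
Mean log2 CPM of the genes tested in each of 36 gene lists (rows, with the number of genes tested), minus the mean of the 3 ET libraries, for ET (grey) and the libraries labelled K238R (orange), with lines joining the lowest and highest library of a group. The groups overlap in 35 lists, and the skeletal muscle list reaches -3.23 in K238R replicate 3.

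Skeletal muscle set single libraries apart and not the groups. All 35 genes of the list were tested, and 0 had an unadjusted p under 0.05 in either direction. Their summed level was 1319, 1141 and 701 CPM in ET and 2141, 2383 and 89.9 CPM in the libraries labelled K238R. K238R replicate 3 was the lowest of the 6 libraries for 31 of the 35 genes, and K238R replicate 2 was the highest for 18. Myh1, a fast myosin heavy chain of mature fibres, was at 10.1, 16.3 and 50.8 CPM in ET and 159, 179 and 0.473 CPM in the libraries labelled K238R (log2 fold change 2.13, 95% interval -1.22 to 5.49). Acta1, the actin of skeletal muscle, was at 133, 105 and 64.7 CPM and 266, 232 and 3.31 CPM. Ttn, the giant sarcomere protein titin, stood at 297, 179.9 and 115 CPM and 338, 386 and 7.52 CPM. Each of the 3 genes was highest in K238R replicate 1 or 2 and lowest in K238R replicate 3. Without K238R replicate 3 the median of the list was 0.79 and 7 genes were higher at an unadjusted p under 0.05 (1.87% of all genes), and without K238R replicate 2 the median was -0.20 and 3 were lower (2.28%).

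**Figure D4:**
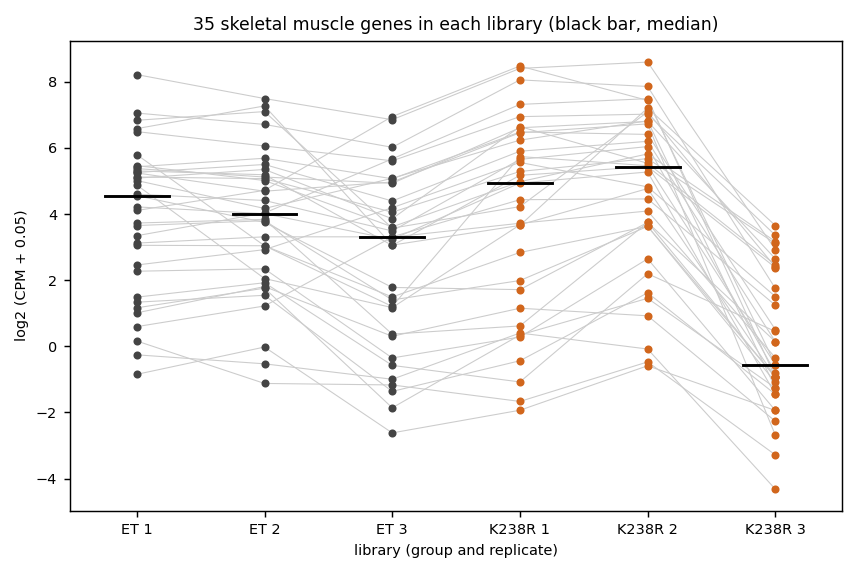
Each point is 1 of 35 skeletal muscle genes in a library (horizontal axis), by its log2 (CPM + 0.05) (vertical axis), grey lines join a gene across libraries and black bars are medians. K238R replicate 3 is the lowest library for 31 of the genes, and K238R replicate 2 is the highest for 18. K238R replicate 1 is the highest for 6 and ET replicate 2 for 7.

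Cardiac genes (23 tested, median -0.30) held 2 lower genes at an unadjusted p under 0.05, beside 3.09% of all genes. Without K238R replicate 3 the number was 0, beside 1.59%. Cer1, a secreted inhibitor of Nodal, BMP and Wnt signals made by anterior endoderm and mesoderm, was at 5.22, 9.17 and 8.23 CPM in ET and 4.605, 3.24 and 3.58 CPM in the libraries labelled K238R, without overlap (log2 fold change -0.98, standard error 0.40). Myl3, a myosin light chain of the ventricle, was at 12.97, 1.34 and 0.282 CPM and 0.318, 0.782 and 0.473 CPM, with ET replicate 1 far above the other 5 libraries.

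Of 7 Y-linked genes tested, 7 had a log2 fold change below 0, with a median of -0.90. At an unadjusted p under 0.05, 4 were lower (Eif2s3y, Uty, Kdm5d and Ddx3y), beside 3.09% of all genes, and 2 did not overlap, beside 4.88%. The mean level of the 7 relative to ET did overlap, at 0.30, -0.90 and 0.61 in ET and -0.38, -0.81 and -0.81 in the libraries labelled K238R on the log2 scale. ET replicate 2 was the lowest of the 6 libraries on this mean and for 3 of the 7 genes. R1 cells and the host mice are male, so both sources carry these genes. Eif2s3y, a translation initiation factor subunit, was at 107, 78.4 and 92.3 CPM in ET and 52.7, 40.3 and 38.5 CPM in the libraries labelled K238R. No library overlapped, and the log2 fold change was -1.07 (standard error 0.18, 95% interval -1.46 to -0.69, DESeq2 adjusted p = 7.75e-05, edgeR adjusted p = 0.297). The WT and K412R means of Eif2s3y were 42.5 and 69.5 CPM, also below ET, so its lower level was not particular to the libraries labelled K238R. Scores of the Y-linked list were -1.84 to -0.55 in WT and -0.04 to 0.26 in K412R. Ddx3y, an RNA helicase, stood at 47.9, 36.8 and 57.99 CPM and 35.2, 29.9 and 24.5 CPM, again without overlap, with a log2 fold change of -0.67 (standard error 0.16). Uty stood at 37.3, 22.2 and 39.8 CPM and 23.6, 12.96 and 16.6 CPM, and ET replicate 2 lay below K238R replicate 1.

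Each of these genes has a relative on the X chromosome, with which it could share reads. Eif2s3x was at 148, 130.1 and 183 CPM in ET and 145, 119.7 and 146 CPM in the libraries labelled K238R (log2 fold change -0.17, 95% interval -0.46 to 0.13), and Ddx3x differed by -0.02 (-0.40 to 0.37), so neither relative showed the difference of its Y-linked partner. The summed level of the Y-linked list was 147 to 221 CPM in ET and 91.7 to 125 CPM in the libraries labelled K238R. Leaving out a library left 3 to 6 of the 7 genes lower at an unadjusted p under 0.05, beside 1.59% to 7.66% of all genes.

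Of the other chromosomes, chromosome 1 had the largest share of higher genes. Of its 1074 genes tested, 63 were higher and 29 lower at an unadjusted p under 0.05, beside 2.52% and 3.09% of all genes. The median difference of its genes from the mean of ET, over genes of at least 5 CPM on average, was -0.05, 0.08 and -0.03 in ET and 0.01, 0.04 and 0.12 in the libraries labelled K238R on the log2 scale. K238R replicate 3 and ET replicate 2 thus held the highest values. The number of higher genes was 31 without K238R replicate 3, 37 without K238R replicate 2, 25 without ET replicate 1 and 211 without ET replicate 2. Over all genes the shares higher in these fits were 1.87%, 1.52%, 1.87% and 10.7% in that order. On chromosome 15 the same libraries were the lowest, at -0.12 in ET replicate 2 and -0.10 in K238R replicate 3, and 12 genes were higher and 29 lower of 723. Chromosome numbers were taken by symbol from RefSeq's mouse gene table.

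**Figure D5:**
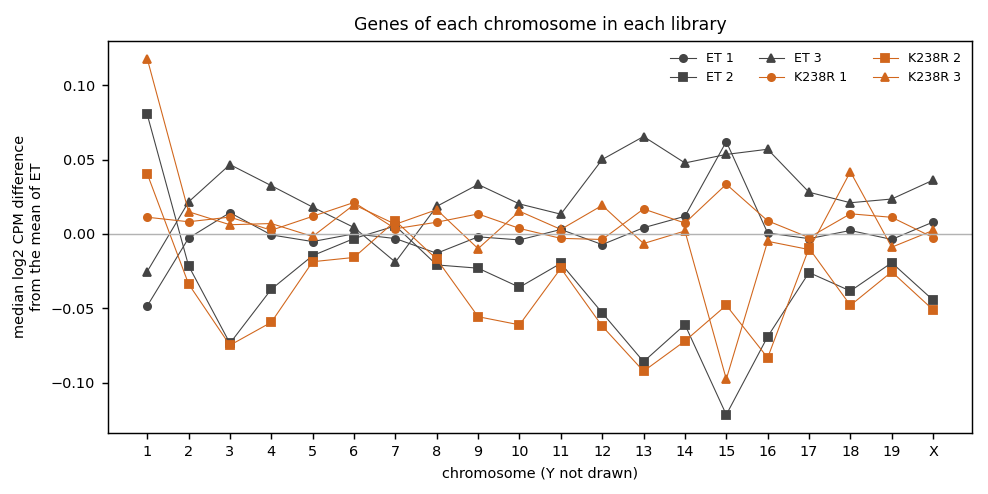
Median log2 CPM difference from the mean of ET (vertical axis) over the genes of each chromosome (horizontal axis) with at least 5 CPM on average, for the 3 ET (grey) and the 3 libraries labelled K238R (orange). On chromosome 1 K238R replicate 3 (0.12) and ET replicate 2 (0.08) lie highest, and on chromosome 15 the same libraries lie lowest (-0.10 and -0.12).

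Trophoblast genes had the highest median of the lists, 0.89 over 16 genes tested. At an unadjusted p under 0.05, 3 were higher and 0 lower, beside 2.52% and 3.09% of all genes. The number higher ran from 2 without K238R replicate 1 to 6 without K238R replicate 2. Over all genes the shares higher in these fits were 3.56% and 1.52%. Ctsj, a cathepsin of the rodent placenta, was at 0.449, 0.175 and 0.507 CPM in ET and 4.29, 0.894 and 2.21 CPM in the libraries labelled K238R, without overlap (log2 fold change 2.68, standard error 0.64, edgeR adjusted p = 0.775). Zfp36l3, an RNA-binding protein of rodent trophoblast, was at 4.098, 1.11 and 3.33 CPM and 5.77, 4.19 and 8.204 CPM, also without overlap. The remaining gene was Gata3, given above with the sympathetic neurons. Peg10, an imprinted gene of the placenta that neural tissue expresses too, was at 752, 839.6 and 1027 CPM and 904, 739 and 866 CPM (log2 fold change -0.06, 95% interval -0.32 to 0.20). Without K238R replicate 1 the median of the list was 0.16.

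Germ cell genes were split. Of 20 genes of primordial germ cells tested, 10 lay above 0 and 10 below. At an unadjusted p under 0.05, 3 were higher, beside 2.52% of all genes. With 1 library left out 1 to 4 were higher, beside 1.52% to 10.7% of all genes. Ddx4, the germline RNA helicase, was at 3.65, 3.85 and 3.66 CPM in ET and 5.72, 7.71 and 5.31 CPM in the libraries labelled K238R, without overlap (log2 fold change 0.75, standard error 0.25). Mael and Tdrd1, which act with piRNAs in silencing transposons, differed by 0.84 and 0.86 on the log2 scale (standard errors 0.27 and 0.33), Mael with overlap and Tdrd1 without. Of 25 meiosis genes the median was 0.07. At an unadjusted p under 0.05, 1 was higher, beside 2.52% of all genes, and it was Ankrd31, a gene of meiotic recombination (log2 fold change 0.86, standard error 0.39). With 1 library left out 0 to 2 meiosis genes were higher, beside 1.52% to 10.7% of all genes.

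Genes of pluripotency (the list labelled naive pluripotency in the figure) and of cell division were lower on average without passing a test. Of 23 pluripotency genes tested, 22 had a log2 fold change below 0, with a median of -0.79, 0 had an unadjusted p under 0.05, and 6 did not overlap, all lower (4.88% of all genes). At an unadjusted p under 0.05, 6 were lower without WT replicate 1 and 5 with the ET and K238R libraries alone, beside 3.63% and 1.92% of all genes in the same fits. Pou5f1, the core factor Oct4, was at 23.1, 30.01 and 49.8 CPM in ET and 21.3, 18.3 and 12.9 CPM in the libraries labelled K238R (log2 fold change -0.97, 95% interval -2.66 to 0.72). The groups did not overlap, but ET replicate 3 was far above the other 5 libraries, as it was for Lin28a at 27.6, 32.4 and 73.4 CPM and 24.03, 18.4 and 20.8 CPM and for Sall4 at 22.7, 25.6 and 49.8 CPM and 19.9, 14.9 and 15.6 CPM. Without ET replicate 3 the median was -0.25. Over 30 genes of mitosis the median was -0.46, and 30 of 30 lay below 0. Mki67, the proliferation antigen Ki-67, was at 496, 311 and 727 CPM and 509, 295 and 374 CPM, and Top2a at 260.2, 161 and 417 CPM and 268, 142 and 189 CPM. For both, K238R replicate 1 lay above ET replicate 1, and ET replicate 3 was the highest. The median was -0.10 without ET replicate 3, and 23 genes were lower at an unadjusted p under 0.05 without ET replicate 2 and 14 without K238R replicate 1, where 7.66% and 3.85% of all genes were lower.

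Genes of macrophages, of antigen presentation and of endothelium came next. Cells of the host and progeny of the ES cells can both make them, and the counts do not separate the sources. Of 21 macrophage genes tested, 20 had a log2 fold change below 0 (median -0.28), and 3 were lower at an unadjusted p under 0.05, Cd14, Mrc1 and C1qc, beside 3.09% of all genes. That number was 6 without K238R replicate 1 and 0 without K238R replicate 2 or 3. Over all genes the shares lower in these fits were 3.85%, 2.28% and 1.59% in that order. C1qc, a complement subunit made by tissue macrophages, was at 31.5, 35.4 and 28.8 CPM in ET and 26.8, 25.4 and 20.2 CPM in the libraries labelled K238R, without overlap (log2 fold change -0.40, standard error 0.18). The summed level of the list was 404 to 496 CPM in ET and 321 to 434 CPM in the libraries labelled K238R. Of 24 genes of the interferon response and of antigen presentation, 9 lay above 0 and 15 below, with a median of -0.17 that was 0.03 without ET replicate 2. Without overlap, 4 were lower and 1 higher, beside 4.88% and 4.47% of all genes. At an unadjusted p under 0.05, 1 gene was lower and 0 higher, beside 3.09% and 2.52% of all genes. It was H2-Aa, a class II antigen-presenting chain, at 5.78, 5.897 and 6.71 CPM and 4.39, 4.19 and 2.31 CPM (log2 fold change -0.75, standard error 0.30). Its partner Cd74, the class I light chain B2m and the interferon-induced GTPase Gbp2 were the other lower ones, with log2 fold changes of -0.45, -0.22 and -0.23, and the interferon regulatory factor Irf7 was the higher one (0.53). Of 22 endothelial genes, Lyve1, a hyaluronan receptor of lymphatic vessels and of some macrophages, was lower at 4.27, 6.66 and 2.99 CPM and 2.96, 1.900 and 2.52 CPM. Cdh5, the cadherin of all endothelium, overlapped at 72.9, 116 and 60.4 CPM and 68.2, 62.6 and 77.7 CPM (log2 fold change -0.26, 95% interval -0.70 to 0.18).

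Immediate early genes, which are induced within minutes of a growth factor or stress signal, stood lower in part. Of 22 immediate early and heat shock genes tested, 7 did not overlap and were lower (4.88% of all genes), and 0 did so in the other direction. At an unadjusted p under 0.05, 1 was lower, Egr3, beside 3.09% of all genes. With 1 library left out 0 to 3 were lower, beside 1.59% to 7.66%. Egr3 was at 8.93, 5.37 and 7.38 CPM in ET and 4.08, 5.25 and 3.89 CPM in the libraries labelled K238R (log2 fold change -0.71, standard error 0.29). Fos was at 36.4, 45.1 and 37.3 CPM and 22.2, 34.7 and 32.2 CPM (log2 fold change -0.41, standard error 0.25). The heat shock gene Hsp90aa1 overlapped, at 924, 931 and 1245 CPM and 949, 1003 and 880.0 CPM.

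Imprinted genes, whose single active copy depends on DNA methylation, were centred on 0. Of 46 tested, 24 lay above and 22 below, with a median of 0.02, and 2 were higher and 1 lower at an unadjusted p under 0.05, beside 2.52% and 3.09% of all genes. Without ET replicate 2 the numbers were 7 and 6, beside 10.7% and 7.66%. Nnat, an imprinted gene of developing neurons, was at 1061, 1393 and 983 CPM in ET and 1428, 1643 and 1426 CPM in the libraries labelled K238R, without overlap (log2 fold change 0.39, standard error 0.17), and Magel2, a gene of hypothalamic neurons, differed by 0.46 (standard error 0.17). The lower gene was Dcn, the matrix proteoglycan decorin named above with fibroblasts, at 316, 215 and 246 CPM and 219, 139.8 and 166 CPM. Meg3 was at 2571, 3430.4 and 1842 CPM and 2212, 4113 and 2680.5 CPM, with a 95% interval of -0.34 to 0.74 for the log2 fold change.

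In 12 further lists 0 genes had an unadjusted p under 0.05 in either direction with all libraries. They were those of floor plate and notochord (16 tested, median -0.15), Hox genes (32, -0.25), fat cells (13, 0.19), red blood cells (11, 0.05), lymphocytes and granulocytes (2, -0.27), keratinocytes (23, -0.15), motile cilia (30, -0.20), airway and secretory epithelium (15, -0.24), intestinal and gastric epithelium (19, -0.18), glycolysis and hypoxia (25, 0.13), mitochondrially encoded genes (13, -0.15) and X inactivation (5, -0.14). Without ET replicate 2, 8 glycolysis and hypoxia genes were higher and 7 Hox genes lower, where 10.7% and 7.66% of all genes were, and no other count in these lists exceeded 3 with 1 library left out. The spread between teratomas was wide in several of them. Krt15, a keratin of basal epithelium, was at 70.6, 190.5 and 36.6 CPM in ET and 42.6, 131 and 129 CPM in the libraries labelled K238R, and Hoxb3 at 73.9, 12.8 and 64.5 CPM and 38.00, 26.03 and 54.3 CPM. Of 18 genes of liver and yolk sac 1 was higher at an unadjusted p under 0.05, which was Ttr, beside 2.52% of all genes. The number higher was 0 without K238R replicate 2 and 3 without ET replicate 2, beside 1.52% and 10.7% of all genes.

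The largest folds belonged to genes of low level. Among genes past the 2-fold and unadjusted p criterion with at least 1 CPM in a group and no overlap, 22 were higher and 46 lower. Cd300ld5, of the CD300 family of myeloid receptors, had 58 counts in ET and 0 in the libraries labelled K238R, at least 20.5-fold lower against a floor of 3 counts over the group (DESeq2 adjusted p = 0.00196, edgeR adjusted p = 0.775). Dynlt2a3, of a family of dynein light chains, had 64 counts in the libraries labelled K238R and 0 in ET, at least 20.1-fold higher (DESeq2 adjusted p = 0.0423, edgeR adjusted p = 0.806), and the readthrough transcript Ripply2-cyb5r4 had 109 counts against 0, at least 34.3-fold higher. All 3 share sequence with relatives or overlapping genes among which the counting could split reads, so their values are uncertain. The relative Cd300ld3 was at 1.74, 4.38 and 2.42 CPM in ET and 3.86, 2.07 and 1.79 CPM in the libraries labelled K238R, and Cyb5r4 at 26.4, 14.4 and 28.6 CPM and 24.3, 16.9 and 22.04 CPM, both with overlap, while Dynlt2a1 was slightly lower without overlap at 18.97, 25.6 and 19.8 CPM and 16.2, 18.5 and 18.3 CPM.

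Of the other genes with the largest folds, several had names that tell a function. Irx4, a transcription factor of the heart ventricle and of retina, was at 1.35, 0.934 and 0.507 CPM in ET and 3.02, 1.62 and 1.998 CPM in the libraries labelled K238R (log2 fold change 1.25, standard error 0.49). Fmo4, a flavin monooxygenase, was at 0.898, 1.05 and 0.6200 CPM and 1.43, 2.51 and 2.31 CPM. On the lower side, Aoc1, a diamine oxidase, was at 0.898, 1.23 and 0.902 CPM and 0.212, 0.391 and 0.316 CPM, and Adamdec1, a metalloprotease of macrophages and gut stroma, at 3.26, 0.817 and 1.52 CPM and 0.688, 0.391 and 0.789 CPM. Oas1g, of the interferon-induced oligoadenylate synthetase family, was at 0.786, 1.11 and 1.35 CPM and 0.3705, 0.391 and 0.316 CPM. The chemokine gene Cxcl17 stood at 0.786, 1.87 and 0.395 CPM and 0.212, 0.391 and 0.316 CPM. None of these genes exceeded 3.26 CPM in any of the 6 libraries, and none passed the adjusted threshold of edgeR or DESeq2.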

How the data were processed

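RNA from the 12 teratomas was sequenced as poly(A)-selected CORALL V2 libraries read from both ends. Per the labels and the methods, the authors trimmed the reads (fastp), aligned them (STAR) and estimated gene abundance (Salmon). GATK is also named in the submitters' processing notes, with GRCm39 as the build. The annotation, versions, strand setting and use of molecular identifiers are not given in the sources used here. The authors deposited an estimated count per gene symbol for each library, in whole numbers and without normalization. Estimated counts leave reads of near-identical genes divided by a model.

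Groups follow the sample titles. Genes passing edgeR's filterByExpr were scaled by TMM and tested with edgeR 4.0.16 (R 4.3.3) by its quasi-likelihood test, with 1 mean per group over all 12 libraries, the contrast K238R minus ET and Benjamini-Hochberg adjustment over 18405 genes. DESeq2 1.42.0, the tool of the study, was an alternative, as were its size factors, no filter, the 6 libraries alone, a replicate block and leaving out each library. DESeq2 gave no adjusted p for 6 genes. Standard errors are the fold change over the root of F. CPM use TMM-scaled totals, and logarithms for scores, distances and chromosome medians a prior count of 2. A list score is the mean of log2 CPM over its genes tested. Tests were run on simulated data first.

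The gene lists (36, with 847 entries) and the comparison itself were chosen with earlier results of these data known. Named genes were Dnmt3l; genes past an adjusted p under 0.05 with edgeR or DESeq2; of genes past 2-fold and an unadjusted p under 0.05 with a mean of at least 1 CPM in either group and no overlap, the 12 largest differences in each direction, those with an informative name being described; and in each list the 2 of highest CPM and the 2 of lowest p. Other list members, relatives of named genes and genes of the leading component were named after their values were seen, for an unadjusted p under 0.05, groups that did not overlap, or because a named gene could share reads with them. Of the tested symbols, 17803 matched RefSeq's table for a chromosome. Sequences are RefSeq's for GRCm38.p6. One gene that the rule names is not reported here. No test for an outlying library was run, since each group holds 3.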

Additional observations from a re-analysis of the deposited data

How the results depend on the processing

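With edgeR, 0 genes passed the adjusted threshold under DESeq2 size factors, without the filter on low counts, with the 6 libraries alone, with a replicate block and with each of the 12 libraries left out, while 1026, 1251, 622, 1403 and 650 to 3443 genes in that order had an unadjusted p under 0.05. The DESeq2 test called 14 genes, and 10 when given all 31068 genes with a count, a setting chosen after seeing the data, all 10 of them among the 14. By the 2-fold and unadjusted p criterion, 57 genes were higher and 118 lower; without the filter the numbers were 176 and 241, with the 6 libraries alone 31 and 71, and with DESeq2 over all genes 88 higher. Leaving out 1 library gave 54 to 280 higher and 92 to 202 lower genes. The numbers moved most without ET replicate 2 (280 higher, 3443 at an unadjusted p under 0.05), ET replicate 3 (202 lower) and K238R replicate 3 (97 higher, 650 at an unadjusted p under 0.05). The cause was not tested. 

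Dnmt3l kept its direction, with a log2 fold change of -2.11 to -0.29 over the left-out libraries and edgeR or DESeq2 adjusted p-values of 0.199 to 1 over all alternatives. The replicate number as a block gave 55 higher and 99 lower genes by the 2-fold criterion and a Dnmt3l log2 fold change of -1.53. Deviations from the group means correlated at 0.0892, 0.391 and 0.117 between libraries of the same number, so the numbers were not taken to pair the teratomas. Some named genes changed direction with single libraries left out. The log2 fold change ran from -2.85 to 0.070 for Actc1, -0.56 to 0.32 for Cd300ld3, -0.44 to 0.074 for Cdh5, -0.37 to 0.045 for Cyb5r4, -0.16 to 0.15 for Ddx3x, -0.20 to 0.12 for Dnmt1, -0.060 to 0.025 for Dnmt3a, -0.80 to 0.026 for Hoxb3, -0.21 to 0.027 for Hsp90aa1, -0.37 to 0.92 for Krt15, -0.10 to 0.46 for Meg3, -0.092 to 0.25 for Pdgfra, -0.16 to 0.072 for Peg10, -0.062 to 0.19 for Sox2 and -0.19 to 0.88 for Ttn. The other named genes kept their direction under each alternative, and the 14 genes called by DESeq2 were the ones that passed a threshold in any of them.

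With 3 teratomas a group the median standard error of a log2 fold change was 0.19, and a gene of low level or uneven between teratomas could differ by more than its fold shows. Intervals cover the spread of these teratomas only. Genes measured at a few counts are limited by depth, and floors cover counting error only.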
